A study of Mus musculus with 4 samples.

Results

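Cluster 7 is 1 of 17 RNA clusters that the study deposited for the monocytes, macrophages and dendritic cells (DCs) of the mouse spleen, a set named the MoMacDC bundle. Its cells were taken by their deposited cluster number. They came to 401 of the 6075 cells of the bundle and of 11631 CD11b+ splenocytes in all, 31 of them in steady state and 370 after GM-CSF. GM-CSF is the growth factor that drives the output of monocytes and granulocytes and the differentiation of DCs from monocytes.

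Splenocytes that carry CD11b, a surface integrin of myeloid cells, were sorted from untreated mice (steady state) and from mice given 3 once-daily injections of GM-CSF (GM-CSF-treated), and were profiled by CITE-seq. This method counts messenger RNAs as unique molecular identifiers (UMIs), each a captured molecule counted once, and 5 surface proteins as antibody tags in the same droplets. Each condition was 1 library, so no difference here carries a test, and the effect of GM-CSF cannot be told apart from that of the library. Strain, sex and age were not given in the labels, nor whether animals were pooled. The libraries held 22358903 UMIs in 4827 steady-state cells and 35007567 in 6804 GM-CSF-treated cells. The sums compared below held 3088492 UMIs for cluster 7 after GM-CSF, 3659724 for cluster 8 and 11477370 for clusters 0, 1 and 3, with medians of 7902, 10545 and 6441 per cell. In both libraries 8 barcodes occurred, none of them in cluster 7. Scrublet called 13 of the 370 cells doublets, droplets with more than 1 cell, against 25 of the 352 cells of cluster 8 and 4 of the 1757 cells of clusters 0, 1 and 3.

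A dividing cell copies its DNA in S phase and parts the copies in mitosis, and the genes for these jobs are read at different times. Genes that load the replicative helicase, make deoxynucleotides and pack new DNA with histones peak at the start of and through S phase, and genes of the spindle and of the anaphase-promoting complex peak in G2 and mitosis. In the spleen, classical monocytes (Ly6C+) can give rise to monocyte-derived DCs under GM-CSF, here called GMiDCs, which carry MHC class II and the lectin CD301b.

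Cluster 7 made up 31 of 2135 bundle cells in steady state (1.45%, 0.989 to 2.06%) and 370 of 3940 after GM-CSF (9.39%, 8.50 to 10.3%). Intervals are exact 95% intervals (Clopper-Pearson for shares of cells, Poisson for UMIs per 1000000 UMIs of a sum, CPM), and they cover counting error only. Where a share was 0, the upper limit printed is instead 3 counts over the number of cells, which is lower than the Clopper-Pearson limit. Because the clusters were made from these same genes, gene differences between clusters are a description and not a test.

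The markers of cycling cells were present in cluster 7 after GM-CSF, though in fewer cells and at a lower level than in cluster 8, which is compared here. Cluster 12, with all 3 markers in 146 of its 152 GM-CSF-treated cells, is not compared further. Mki67 (chr7:135689784-135716361, GRCm38, minus strand), the proliferation antigen Ki-67, stood at 484 CPM (460 to 509) in cluster 7, 852 in cluster 8 and 6.71 in clusters 0, 1 and 3. Top2a (chr11:98992943-99024189, minus strand), the topoisomerase that untangles chromosomes, stood at 404, 989 and 5.14 CPM in the same order. Stmn1 (chr4:134468320-134473843, plus strand), which destabilizes microtubules, stood at 557, 1463 and 20.2 CPM. All 3 markers were therefore below cluster 8 and far above clusters 0, 1 and 3. At least 1 UMI of Mki67 was found in 65.1% of the 370 cells, of Top2a in 48.9% and of Stmn1 in 85.4%. In granulocytes of the same library, cells that do not divide, the shares were 0.391, 0.726 and 0.558% at a median of 1229 UMIs per cell against 7902 in cluster 7. With each cell thinned to 1000 UMIs, the shares with Mki67 were 33.0% in cluster 7, 57.7% in cluster 8, 0.854% in clusters 0, 1 and 3 and 0.232% in granulocytes, of which 496 shallower cells were left out. All 3 markers together were found in 163 cells (44.1%, 38.9 to 49.3%) against 335 of 352 in cluster 8 (95.2%), and none of them in 40 cells (10.8%) against 1.

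The deposited phase split these cells sharply. The authors had scored each cell for S phase and for G2/M genes, and of the 370 GM-CSF-treated cells 266 were in G2M (71.9%, 67.0 to 76.4%), 54 in S (14.6%) and 50 in G1 (13.5%). Cluster 8 had a like share in G2M, 254 of 352 (72.2%), but 98 cells in S (27.8%) and none in G1. Of the 1757 cells of clusters 0, 1 and 3, 1508 were in G1, 242 in S (13.8%, 12.2 to 15.5%) and 7 in G2M. Their S share was thus near that of cluster 7. The median S score was -0.0276 in cluster 7 and 0.275 in cluster 8, and the median G2/M score was 0.326 and 0.569. A phase is a cut in a score, and 39 of the 54 S cells of cluster 7 had an S score under 0.1 (72.2%), as did none of the 98 of cluster 8, so most S calls in cluster 7 lay near the cut. Of the 266 G2M cells, 31 had a G2/M score under 0.1 (11.7%).

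**Figure D1:**
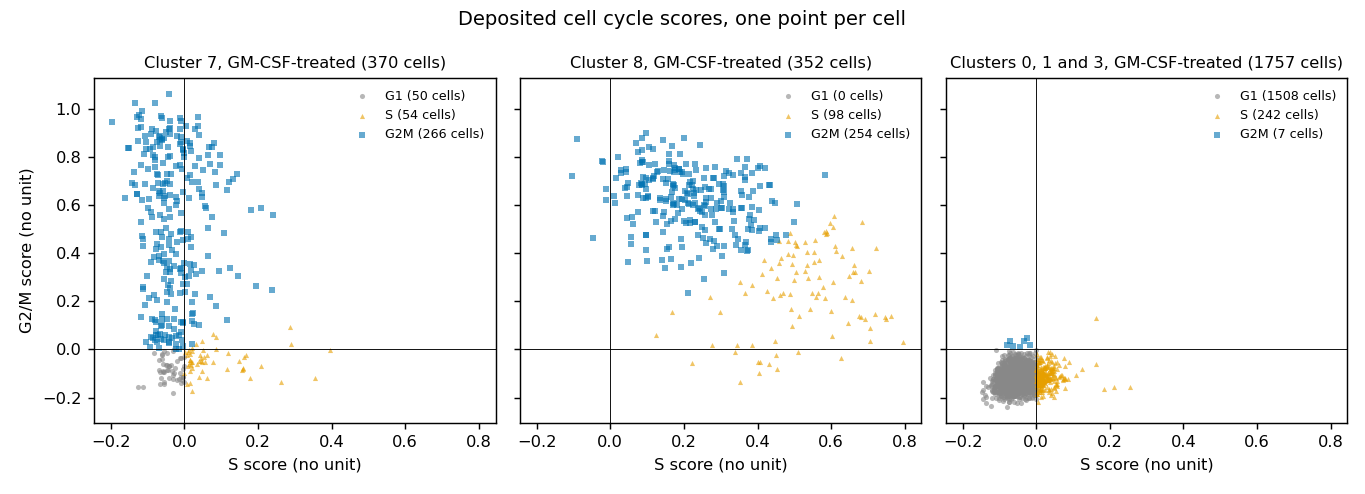
S score (horizontal) and G2/M score (vertical, both without unit) as deposited, 1 point per GM-CSF-treated cell, coloured by phase, for cluster 7 and its comparison clusters. In cluster 7 the G2M cells run upward from near 0 with low S scores, and most of the 54 S and 50 G1 cells lie close together near 0 in both scores, while in cluster 8 the S scores are higher (median 0.275 against -0.0276).

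Most UMIs of the markers lay in the G2M cells. Mki67 and Top2a are among the G2/M genes that score the phase in Seurat, so their split by phase restates the call, while Stmn1 is not. Mki67 had 1476 of its 1495 UMIs in them, at 652 CPM (619 to 686), against 32.8 CPM (17.9 to 55.0) in S cells and 12.6 CPM (4.08 to 29.3) in G1 cells. In cluster 8 the S cells stood at 519 CPM. Top2a followed the same order at 548, 11.7 and 7.53 CPM, with 673 in the S cells of cluster 8. Stmn1 stood at 686 CPM in G2M, 276 in S and 126 in G1, so it fell off less steeply. A UMI of Mki67 was found in 230 of the 266 G2M, 7 of the 54 S and 4 of the 50 G1 cells. The cluster is called by its number here.

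The study's earlier clustering of all splenocytes divided cluster 7 in nearly the same way, though from the same genes. It had placed 222 of the 370 cells in a cluster named MoMacDC_c4, 220 of them G2M, and 142 in MoMacDC_c1 with 48 G1, 51 S and 43 G2M cells. Mki67 stood at 739 CPM in the 222 cells and at 40.5 CPM in the 142 cells, Top2a at 627 and 13.8, and Stmn1 at 736 and 244. Kif2c, a kinesin that corrects wrong attachments of chromosomes to the spindle, had 225 UMIs in the former and 0 in the latter, which is at least 41.6-fold lower against 3 counts. The MoMacDC_c1 cells carried more Id3, an inhibitor of transcription factors, with 70 UMIs in 22 cells against 15 in 8 (CPM ratio 8.42, 4.78 to 15.8), more Mrc1, the mannose receptor (5.33, 3.16 to 9.34), and more Hpgd, which breaks down prostaglandins (6.84, 4.08 to 12.01). Id3, Mrc1, Hpgd and Kif2c were among the extremes of this split, which was drawn up after the values were seen.

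Against cluster 8, genes of DNA replication were low in cluster 7 and a few genes of mitotic entry and exit were high. The promoters of the 2 replication genes with the lowest and of the 2 mitosis genes with the highest CPM ratio are shown as the extremes of each group, and the latter do not stand for the mitosis lists as a whole. Only genes with a single entry in the RefSeq promoter table (GRCm38.p6) were used, and the 250 bases before the start are printed on the strand of the gene. Capitals mark CCAAT, the E2F-type words TTCCCGC or TTGGCGC or TTCGCGC, and the cell cycle homology region (CHR) TTTGAA or TTCGAA, each on either strand. The reverse of TTGGCGC shares its CCAA with CCAAT. Rrm2, the small subunit of ribonucleotide reductase, lies behind chr12:24708004-24708253 (plus strand). Cdc6, which loads the helicase at origins, lies behind chr11:98907901-98908150 (plus strand). Cdc25b, the phosphatase that starts mitosis, lies behind chr2:131186698-131186947 (plus strand). Ccnb2, cyclin B2, lies behind chr9:70421555-70421804 (minus strand).
Rrm2: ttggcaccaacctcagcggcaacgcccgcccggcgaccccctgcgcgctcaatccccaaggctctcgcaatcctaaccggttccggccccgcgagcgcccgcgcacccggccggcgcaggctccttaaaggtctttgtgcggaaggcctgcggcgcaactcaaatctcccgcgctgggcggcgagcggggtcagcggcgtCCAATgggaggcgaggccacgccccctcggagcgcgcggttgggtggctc
Cdc6: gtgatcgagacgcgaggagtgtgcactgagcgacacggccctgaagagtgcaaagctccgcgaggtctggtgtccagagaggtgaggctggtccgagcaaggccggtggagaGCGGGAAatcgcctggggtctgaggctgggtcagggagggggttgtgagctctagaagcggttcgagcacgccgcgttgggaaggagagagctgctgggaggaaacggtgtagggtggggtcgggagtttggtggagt
Cdc25b: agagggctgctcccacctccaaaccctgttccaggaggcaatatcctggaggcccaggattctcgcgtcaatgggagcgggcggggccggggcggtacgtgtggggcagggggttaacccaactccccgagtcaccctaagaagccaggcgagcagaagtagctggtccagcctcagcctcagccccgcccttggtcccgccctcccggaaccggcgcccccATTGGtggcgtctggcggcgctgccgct
Ccnb2: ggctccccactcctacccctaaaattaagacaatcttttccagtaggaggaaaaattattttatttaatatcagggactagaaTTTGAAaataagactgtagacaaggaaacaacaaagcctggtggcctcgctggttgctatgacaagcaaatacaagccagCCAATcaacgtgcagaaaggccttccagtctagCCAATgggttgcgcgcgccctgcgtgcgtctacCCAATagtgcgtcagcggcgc

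Rrm2 held 1 CCAAT, Cdc6 1 E2F-type word, Cdc25b 1 CCAAT, and Ccnb2 3 CCAAT and 1 CHR. Of the 49 genes for licensing, fork and deoxynucleotide synthesis with an entry (of 58), 38.8% held an E2F-type word, 61.2% CCAAT, 18.4% the CHR and 12.2% both of the last. Of the 59 genes for mitotic entry, kinetochore and spindle with an entry (of 72), 18.6% held an E2F-type word, 69.5% CCAAT, 33.9% the CHR and 28.8% both. Over the promoters of all 27025 genes the shares were 7.68, 37.5, 19.6 and 7.001%. A match is a run of letters and not a bound site, and its part in the levels was not tested.

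Over the 8165 genes with at least 50 UMIs in the sums of clusters 7 and 8, 93 were at least 2-fold higher in cluster 7 (1.14%) and 390 at least 2-fold lower (4.78%), with a median CPM ratio of 1.03. The replication lists held many of the low genes. Of the 12 licensing genes with enough UMIs, 11 were at least 2-fold lower and none higher, and the list summed to 375 CPM (354 to 397) against 1367. Cdc6 had 7 UMIs in cluster 7 and 125 in cluster 8, Mcm6, a helicase subunit, 64 and 418, and Orc2, of the origin recognition complex, 50 and 83. Of 30 fork genes 28 were lower (630 against 2193 CPM), from Chaf1b of the chromatin assembly factor (CPM ratio 0.109, 0.0507 to 0.208) to Gins4 of the helicase complex (0.658, 0.517 to 0.835). Of 14 genes for deoxynucleotides 9 were lower (377 against 1277 CPM), and Rrm2 had 41 UMIs in 29 cells against 813 in 283 cells (0.0598, 0.0426 to 0.0818). Of 17 genes of DNA repair 16 were lower (313 against 1140 CPM), such as Clspn, a mediator of the replication checkpoint, with 37 against 432 UMIs.

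The drivers of S phase entry were low as well. Ccne2, cyclin E2 (chr4:11191351-11204779, plus strand), had the lowest CPM ratio of all genes, with 2 UMIs in cluster 7 and 110 in cluster 8 (0.0215, 0.00258 to 0.0797), and Ccne1, cyclin E1, had 13 and 202. Of 7 cyclins and kinases of G1 4 were at least 2-fold lower, while Ccnd3, cyclin D3, stood at 196 and 203 CPM. Of 8 transcription factors of the cycle 4 were lower, such as E2f7 (13 against 155 UMIs) and Mybl2 (10 against 116), and E2f4 stood at 46.3 and 47.8 CPM. Of 7 inhibitors of cyclin-dependent kinases and pocket proteins 4 were lower, with Rbl1 at 26.9 against 82.3 CPM and Rbl2 at 47.0 against 32.2. Of 6 genes of DNA methylation 3 were lower, among them Uhrf1, which copies methyl marks after replication (50 against 488 UMIs).

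Histone genes parted within their list. Of 15, 9 were at least 2-fold lower and 1 higher, and the list summed to 4529 against 7513 CPM. Hist1h1b, a linker histone, had 250 UMIs against 3311 (0.0895, 0.0784 to 0.102), Hist1h1a 8 against 191, and Hist1h2ab 24 against 365. Hist1h2bc (chr13:23684199-23692908, plus strand) went the other way, with 765 UMIs in 249 cells of cluster 7 and 152 in 88 cells of cluster 8 (5.96, 5.01 to 7.15). It stood at 289 CPM in the G1, 297 in the S and 231 in the G2M cells of cluster 7, and at 87.8 in clusters 0, 1 and 3. Histone genes lie in families of near-identical copies, so the split of their reads between members is uncertain.

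Of the mitosis lists, entry and exit had sums near those of cluster 8, and the spindle, kinetochore and condensin lists had lower sums. The median CPM ratios of their genes were 0.754 for entry, 0.781 for exit and 0.861 for the spindle. They were 0.598 for the kinetochore and 0.533 for condensin and cohesin. The median gene of entry and exit was thus lower than in cluster 8, though the sums were near. The 16 genes of mitotic entry summed to 1429 CPM (1387 to 1471) in cluster 7 and 1488 (1449 to 1528) in cluster 8, and the 11 of mitotic exit to 2901 and 2935. Of mitotic entry 1 was at least 2-fold higher, Cdc25b, with 349 UMIs against 183 (2.26, 1.88 to 2.72), and 5 were lower, such as Pkmyt1, the kinase that holds mitosis back (45 against 198 UMIs), and Cdc25a (29 against 112). Ccnb2 lay just inside the limit at 1.99 (1.80 to 2.20), with 348 against 175 CPM. Of mitotic exit 1 was at least 2-fold higher, Cdc20, the activator of the anaphase-promoting complex (205 against 99.5 CPM), and 1 lower, Fbxo5, its inhibitor in S and G2 (26.9 against 156 CPM). Ube2c, the enzyme that hands ubiquitin to this complex, stood at 911 against 539 CPM.

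Of 26 kinetochore genes 9 were at least 2-fold lower and none higher (2213 against 2649 CPM). Cenpa, the histone H3 of centromeres, stood at 546 against 313 CPM and Cenpf at 310 against 193, while Cenph stood at 12.6 against 50.3. Of 18 genes of condensin and cohesin, the list that holds Mki67 and Top2a, 7 were lower (2476 against 4657 CPM), and Esco2, which acetylates cohesin in S phase, had 36 against 458 UMIs. Pttg1, securin, stood at 47.0 against 27.9 CPM. Of 29 spindle genes, which summed to 5327 against 8027 CPM, 2 were lower, Stmn1 and Tuba1b (391 against 966 CPM), and Aspm, at the spindle poles, stood at 120 against 75.1 CPM.

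**Figure D2:**
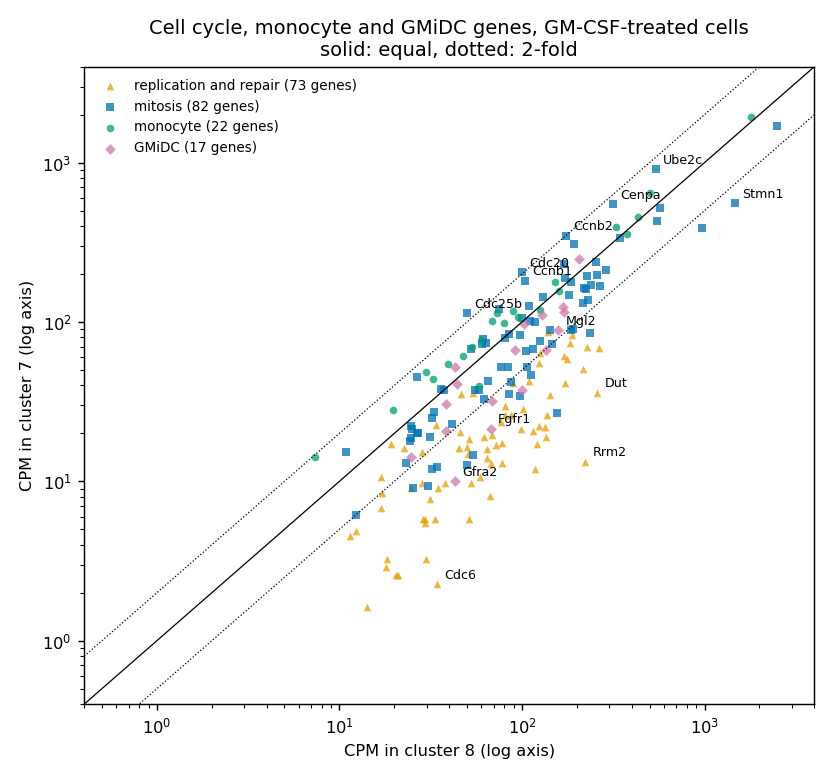
CPM in cluster 8 (horizontal) and cluster 7 (vertical, both log axes) of GM-CSF-treated cells, 1 point per gene, coloured by list; the solid line marks equal levels and dotted lines a 2-fold difference. Replication genes lie below the lower dotted line (11 of 12 for licensing), and genes of mitosis and monocytes lie mostly between the dotted lines, with Stmn1 and Tuba1b among those below.

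Of the 12 highest ratios, Mcpt8 and Prss34, proteases of basophils and mast cells, had 209 and 207 UMIs in cluster 7, all of them in 1 G2M cell of 7189 UMIs that was not called a doublet. The others named here were spread over cells. Slfn5, an interferon-induced gene, had 212 UMIs in 143 cells against 52 in 45 (4.83, 3.55 to 6.68), Tcp11l2 87 in 77 against 24 in 20 (4.30, 2.71 to 7.06), Cep89, of the centriole, 91 in 76 against 26 in 24 (4.15, 2.66 to 6.68), and Creb3l2, a transcription factor of the secretory pathway, 43 against 12. Adamdec1, Spp1 (osteopontin), Ly6a (Sca-1) and Gm8369 had ratios from 3.13 to 4.01, and Hist1h2bc was also in this set. The 12 lowest were Ccne2, Hist1h1a, Rrm2, Aunip, Cdc6, Ccne1, Hist1h2ab, Chd3os, Kntc1, Sept3, Hist1h1b and Esco2, from 0.0215 to 0.0931.

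Among G2M cells alone, of which cluster 7 had 266 and cluster 8 254, licensing was again lower, while the sums of mitotic entry and exit were higher in cluster 7, where over all cells they were near those of cluster 8. The median gene ratio was 0.934 for mitotic entry and 0.905 for mitotic exit, so the median gene of either list was not higher. Over 7478 genes, 85 were at least 2-fold higher and 269 lower. Licensing genes summed to 366 CPM (341.8 to 392.2) against 1035 (996 to 1074), mitotic entry to 1879 (1823 to 1936) against 1700 (1651 to 1750), and mitotic exit to 3724 (3645 to 3804) against 3360 (3291 to 3431). Hist1h2bc stood at 231 against 47.0 CPM, Slfn5 at 72.03 against 14.7, and Spp1 at 19.9 against 3.76. Rrm2 had 40 UMIs against 485 and Ccne1 4 against 89. These cells shared a phase label but were not matched in score, since 31 of the 266 in cluster 7 and none of the 254 in cluster 8 had a G2/M score under 0.1.

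Over all cells, most lists of cell identity parted these clusters little, while the GMiDC list was lower in cluster 7. None of the 13 classical monocyte, 9 non-classical monocyte, 10 MHC class II, 13 DC and monocyte transcription factor, 4 costimulation and 11 colony-stimulating factor receptor genes with enough UMIs differed 2-fold, and the median ratios were 1.12, 1.38, 1.0, 1.05, 1.0 and 1.10. Ly6c2 (chr15:75108158-75111970, minus strand), the Ly6C antigen of classical monocytes, stood at 155 CPM in cluster 7 and 159 in cluster 8. Irf8, a factor of monocytes and DCs, stood at 221 against 131 CPM. Among G2M cells alone 3 of the 13 classical monocyte genes were at least 2-fold higher in cluster 7, among them F13a1 and Vcan with ratios of 2.18 and 2.20, and the list had a median ratio of 1.44 and summed to 4899 against 3982 CPM. The early granulocyte list moved with it, at 58.8 against 24.04 CPM, and its part was not tested. Of 17 GMiDC genes, taken from a longer list that the study chose on these same cells and so not independent evidence, 5 were at least 2-fold lower (1176 against 1629 CPM). Fgfr1 had 66 against 247 UMIs and Mgl2 (CD301b, chr11:70130329-70137550, plus strand) stood at 89.0 against 158 CPM. None of 14 glycolysis and none of 16 respiration genes differed 2-fold, and of 13 genes of ribosome biogenesis Rrp9 was higher (39 against 17 UMIs) and Nop56 lower (96 against 235).

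Clusters 0, 1 and 3 are large clusters of GM-CSF-treated cells that were mostly in G1 by the deposited phase. Over 9367 genes, 562 were at least 2-fold higher in cluster 7 (6.0%) and 529 at least 2-fold lower (5.65%), with a median CPM ratio of 0.986 (0.980 with genes at 0 UMIs set to 3 counts). Nearly the whole mitotic machinery was higher. It held 13 of 14 genes of mitotic entry (1429 against 46.9 CPM), 21 of 22 of the kinetochore (2213 against 188), 29 of 29 of the spindle (5327 against 700), 9 of 11 of mitotic exit (2901 against 327) and 14 of 17 of condensin and cohesin (2476 against 502). Kif2c (chr4:117159639-117182639, minus strand) had 225 UMIs in 123 cells against 0, at least 279-fold higher against a floor of 3 counts over the group. Nek2, a centrosome kinase, had 139 in 87 cells against 0, at least 172-fold. Depdc1a, Kif14 and Kif18b, of mitosis and cytokinesis, also had 0 UMIs in the comparison clusters. Ccnb1, cyclin B1 (chr13:100778650-100786570, minus strand), had 560 UMIs against 1 (ratio 2081, 372 to 82342), Hmmr, a spindle protein, 391 against 1, Ccna2, cyclin A2, 501 against 3 (ratio 621, 211 to 3020), Aspm 371 against 3, and Cenpe, a kinesin of the kinetochore, 709 against 6. Mcpt8 and Prss34 of the single cell described above made up the rest of the 12 highest.

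Replication genes stood above these clusters by less. Of 11 licensing genes 9 were at least 2-fold higher (375 against 118 CPM), of 24 fork genes 12 (630 against 323), of 13 deoxynucleotide genes 4 (377 against 252), of 12 histone genes 10 (4529 against 1829) and of 8 DNA repair genes 5 (313 against 111). Mcm10 stood at 23.6 against 1.31 CPM and Mcm2 at 26.2 against 4.01, while Pcna, the sliding clamp of the polymerase, stood at 22.3 against 25.1. Of 6 transcription factors of the cycle 3 were higher, among them Foxm1, which drives G2/M genes (127 UMIs against 2, ratio 236, 64.0 to 1970). Of 7 kinase inhibitors and pocket proteins 3 were higher, Cdkn2c at 58.9 against 8.02 CPM first. Of 7 G1 genes 2 were lower, the D-type cyclins Ccnd1 (27 against 427 UMIs) and Ccnd2 (3 against 50), and of 7 genes of DNA methylation 3 were higher. Cluster 7 thus lay between the comparison clusters and cluster 8 in licensing, and near cluster 8 in the sums of mitotic entry and exit, while its spindle, kinetochore and condensin sums lay below those of cluster 8.

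**Figure D3:**
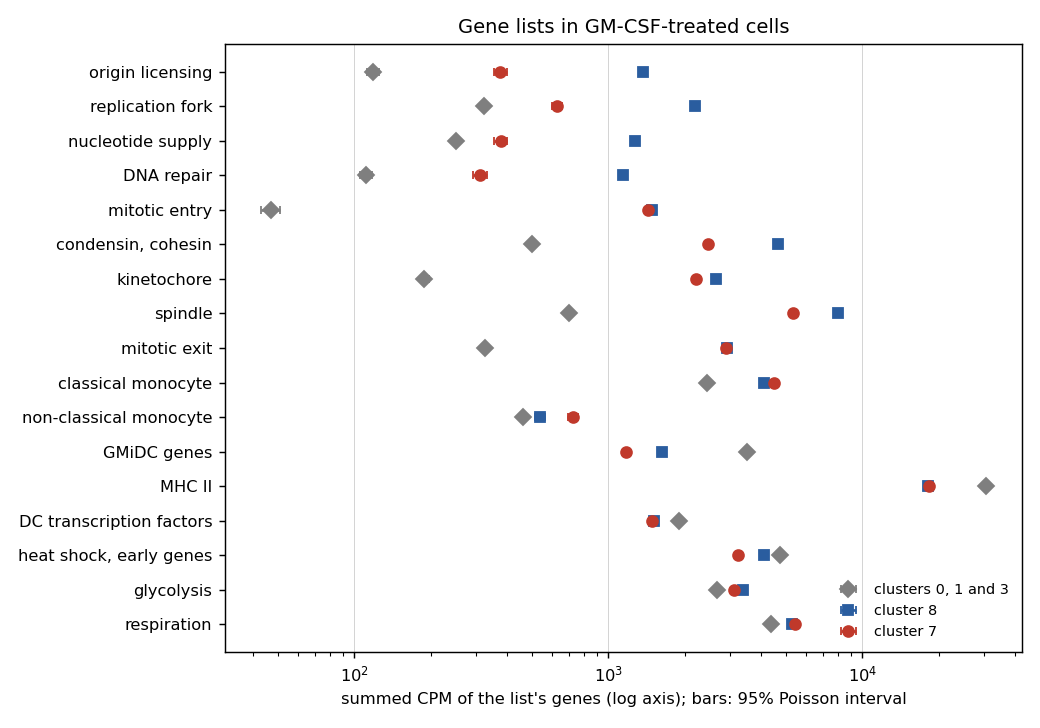
Summed CPM (horizontal, log axis) of the gene lists in GM-CSF-treated cells of cluster 7, cluster 8 and clusters 0, 1 and 3, with 95% Poisson intervals. For licensing cluster 7 (375 CPM) lies between clusters 0, 1 and 3 (118) and cluster 8 (1367), for mitotic entry it lies at cluster 8 (1429 and 1488 against 46.9), and for GMiDC genes it is the lowest of the 3 (1176).

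Genes of classical monocytes were higher and GMiDC genes lower than in clusters 0, 1 and 3 pooled. These clusters were unlike, with CD301b tag medians of 187 in cluster 0, 11 in cluster 1 and 103.5 in cluster 3. The lists are given for the pool only. Of 13 classical monocyte genes 10 were at least 2-fold higher (4482 against 2434 CPM), with Ly6c2 at 155 against 4.01 CPM (ratio 38.8, 28.6 to 53.7) and F13a1, a coagulation factor subunit of these monocytes, at 77.1 against 2.09 (36.9, 24.2 to 58.7). Cebpa stood at 69.9 against 103. Of 10 non-classical monocyte genes 5 were higher, Cx3cr1 and Treml4 most (101 against 19.7 and 61.5 against 14.7 CPM). Of the 17 GMiDC genes 14 were at least 2-fold lower (1176 against 3504 CPM), from Fgfr1 (66 against 2446 UMIs) and Mmp12, a metalloelastase (115 against 3268), to Mt1 and Cd9 at ratios of 0.677 and 0.671, and these genes were taken from those the study chose on these cells. Of 10 MHC class II genes 2 were at least 2-fold lower (18276 against 30593 CPM), H2-DMb2 and H2-Ob. Of 13 transcription factors of DCs and monocytes 2 were lower, among them Zbtb46, of DCs (33 against 420 UMIs). Of 6 costimulation genes 2 were lower, Pdcd1lg2 and Icosl. Of 15 receptor genes 1 was higher, Csf3r, the G-CSF receptor (51.2 against 12.6 CPM), and 2 lower, Flt3 and Socs2. No gene of glycolysis (14), respiration (16) or ribosome biogenesis (14) differed 2-fold.

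Among the 12 lowest ratios, Egr2, an early response transcription factor, had 7 UMIs against 398, Epcam, an adhesion molecule, 5 against 318, Sept3 6 against 472 and Plet1 1 against 118. Trim47, Mir17hg and Itpr3 had 0 against 71, 66 and 57, at least 6.37-, 5.92- and 5.11-fold lower. Ccl24 had 0 against 130, of which 91 lay in 1 cell. The other 4 were globin genes (Hbb-bs and Hbb-bt, and Hba-a1 with Hba-a2), and 1884 of the 1910 UMIs of the erythroid list in clusters 0, 1 and 3 lay in 1 cell.

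Markers of other cells moved with some of these results. Of 10 neutrophil genes 7 were at least 2-fold higher than in clusters 0, 1 and 3 (688 against 269 CPM), while cluster 8 stood at 953 CPM. In cluster 7, 1 cell held 921 of the 2126 UMIs and 5 cells 56.7%. There 14 cells held 10 or more UMIs, against 21 in cluster 8. The median was 2 UMIs per cell in clusters 7 and 8 and 1 in clusters 0, 1 and 3. Among S cells alone the ratio of the summed list was 0.7498 in place of 2.56. Both early granulocyte genes with enough UMIs were higher, Prtn3 with 61 UMIs against 12 and Cebpe with 34 against 53 (19.8 against 1.05 and 11.0 against 4.62 CPM), and 4 cells held 10 or more UMIs of this list. Of 12 genes of heat shock and early response, signs of handling, 7 were lower (3243 against 4743 CPM), and 3 of 11 against cluster 8, with Hspa1b at 3.56 CPM in cluster 7, 21.0 in cluster 8 and 37.0 in clusters 0, 1 and 3. T cell and B cell lists summed to 1.62 and 5.18 CPM with no gene of enough UMIs. Of the cDC1 list Clec9a and Itgae were lower (1 against 66 and 9 against 200 UMIs), of the macrophage list Spic was higher (11.0 against 4.36 CPM), and the single plasma cell and plasmacytoid DC genes with enough UMIs, Xbp1 and Bst2, and all 4 cDC2 genes differed less than 2-fold. The part of such cells in the results was not tested.

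Within cluster 7 the S and G2M cells were compared over 5901 genes, of which 85 were at least 2-fold higher in S (1.44%) and 364 lower (6.17%). The phases were set from the S and G2/M gene lists, so the cycle genes among them only restate the calls. Mcm2 had 43 UMIs in 22 of the 54 S cells against 36 in 31 of the 266 G2M cells (ratio 6.32, 3.97 to 10.1), and Mcm6 26 against 31 (4.44, 2.53 to 7.73). Kif11, Hmmr, Kif20b, Kif2c and G2e3 had 0 UMIs in S against 221 to 425 in G2M, at least 13.9- to 26.8-fold lower, and Cdc20 had 1 against 633. Licensing genes summed to 138 CPM in G1, 641 in S and 366 in G2M, and spindle genes to 1240, 1596 and 6751. The other 4 of the 6 highest in S were no genes of the cycle. Hpgd had a ratio of 5.51 (3.06 to 9.94), Ckb, the brain-type creatine kinase, 5.12 (2.96 to 8.83), Mrc1 4.35 (2.39 to 7.83) and Ifitm1, an interferon-induced membrane protein, 3.82 (2.22 to 6.51), the last with 13 of its 26 UMIs in S in 1 cell.

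Identity genes varied with phase. The classical monocyte list summed to 3289 CPM (3113 to 3472) in G1, 3383 (3211 to 3562) in S and 4899 (4808 to 4991) in G2M, with Ly6c2 at 80.4, 126 and 174 CPM and Chil3, a chitinase-like protein of monocytes, at 148, 84.2 and 447. MHC class II genes summed to 21204, 21043 and 17238 CPM and GMiDC genes to 1122, 1016 and 1216. The G2M cells therefore had the highest monocyte and the lowest MHC class II sums of the 3 phases. Neutrophil genes moved with them, at 226 CPM in G1, 194 in S and 863 in G2M. All 14 cells with 10 or more UMIs of that list were G2M cells, and 1 of them held 921 of the 1953 UMIs in G2M. The early granulocyte list stood at 7.02 CPM in S and 58.8 in G2M, and the part of these markers was not tested.

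By their tags the study had sorted the cells with high CD115, the receptor of M-CSF, into P-I (classical monocytes, Ly6C+), P-II (non-classical monocytes), P-III and P-IV (GMiDCs, CD301b+). Of the 370 cells 318 were below that gate and 52 were CD115hi (14.1%, 10.7 to 18%), against 82 of 352 in cluster 8 (23.3%) and 364 of 1757 in clusters 0, 1 and 3 (20.7%). Of the 52, 30 were P-I (57.7%, 43.2 to 71.3%), 15 P-IV (28.9%, 17.1 to 43.1%), 3 P-III and 4 of no named subset, and none was P-II, which allows a share of up to 5.77%. Cluster 8 had the reverse order, with 22 P-I (26.8%), 8 P-III and 47 P-IV (57.3%). Cluster 7 held 30 of all 187 P-I cells after GM-CSF (16.0%), 3 of 126 P-III and 15 of 313 P-IV (4.79%). In G2M were 20 of the 30 P-I, 10 of the 15 P-IV and 232 of the 318 cells below the gate.

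The sums of mitotic entry and licensing were at like levels in P-I and P-IV cells of cluster 7, but not all cell cycle lists were. Condensin and cohesin summed to 2504 CPM in P-I and 2067 in P-IV, and the cyclins and kinases of G1 to 317 and 197. The intervals of these CPM ratios lay above equality, and those of the other cell cycle lists included it. No gene of licensing, the fork or DNA repair had enough UMIs to be compared singly. Mitotic entry summed to 1490 CPM (1345 to 1647) in P-I and 1302 (1111 to 1516) in P-IV, and licensing to 403 and 395. Outside clusters 7 and 8, P-I cells of cluster 2 stood at 39.4 CPM for mitotic entry and P-IV cells of cluster 0 at 44.8. Mki67 stood at 387 CPM in both, with a UMI in 21 of 30 P-I and 7 of 15 P-IV cells. With 258376 and 126746 UMIs in these sums, 1134 genes could be compared, of which 45 were at least 2-fold higher in P-I (3.97%) and 13 lower (1.15%).

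Identity genes parted the subsets inside cluster 7. The subsets had been gated on tags that include Ly6C, MHC class II and CD301b. The split of Ly6c2, of Mgl2 and of the MHC class II genes therefore in part restates the gates. Chil3 had 149 UMIs in 16 P-I cells against 6 in 2 P-IV cells (ratio 12.2, 5.47 to 33.7). Cebpb, a transcription factor of monocytes, had 176 against 17 (5.08, 3.08 to 8.92), Lyz2, lysozyme, 1817 against 212 (4.20, 3.65 to 4.87), Fn1, fibronectin, 163 against 18 (4.44, 2.72 to 7.68), Gngt2 81 against 7 and Smpdl3a 77 against 8. The lowest were Tmem176b (14 against 43, 0.160, 0.0807 to 0.298), Tmem176a (13 against 39), Cd24a (22 against 54), Kctd12, Eps8 and Tspan13. The classical monocyte list summed to 5442 against 2840 CPM, MHC class II to 14320 against 26810, and the GMiDC list, taken from the study's choice on these cells, to 770 against 2438. Ly6c2 had 44 UMIs in P-I and 1 in P-IV, and Mgl2 3 and 14. The same sums were 4501, 15146 and 720 CPM in P-I cells of cluster 2, and 2548, 31479 and 4881 in P-IV cells of cluster 0, so the GMiDC list was lower in P-IV cells of cluster 7 than in those of cluster 0.

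The tags themselves did not enter the RNA clusters. In cluster 7 after GM-CSF the median tag counts per cell were 35 for CD115, 120.5 for CD11c, 79 for Ly6C (quartiles 32 and 158.5), 221 for MHC class II (105.8 and 368.2) and 14 for CD301b (8 and 26). Cluster 8 had more of each but Ly6C, at 48, 240, 54, 397.5 and 26. Clusters 0, 1 and 3 had medians of 45, 187, 15, 358 and 64. Cluster 7 had thus the highest Ly6C and the lowest MHC class II and CD301b of the 3 groups. Within the pooled group, however, cluster 1 had a CD301b median of 11 (quartiles 7 and 26), below that of cluster 7. Clusters 0 and 3 had CD301b medians of 187 and 103.5. Cluster 6 after GM-CSF, not compared further, had medians of 262.5 for Ly6C, 22 for MHC class II and 12 for CD301b. High Ly6C with low MHC class II was thus not particular to cluster 7. The quartiles of clusters 7 and 8 overlapped for all 5 tags. Those for Ly6C in clusters 0, 1 and 3 (11 and 21) lay below those of cluster 7. Within cluster 7 the subsets differed as their gates require, with Ly6C at 128 in P-I and 20 in P-IV, MHC class II at 227 and 589, and CD301b at 17.5 and 83. The 318 cells below the CD115 gate had medians of 81.5 for Ly6C, 204 for MHC class II and 12.5 for CD301b. These medians lay nearer to those of P-I than to those of P-IV, but the Ly6C median was lower than in P-I. The lower Ly6C quartile of the 318 cells, 33.25, was below the lowest Ly6C count of a P-I cell, 47.

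**Figure D4:**
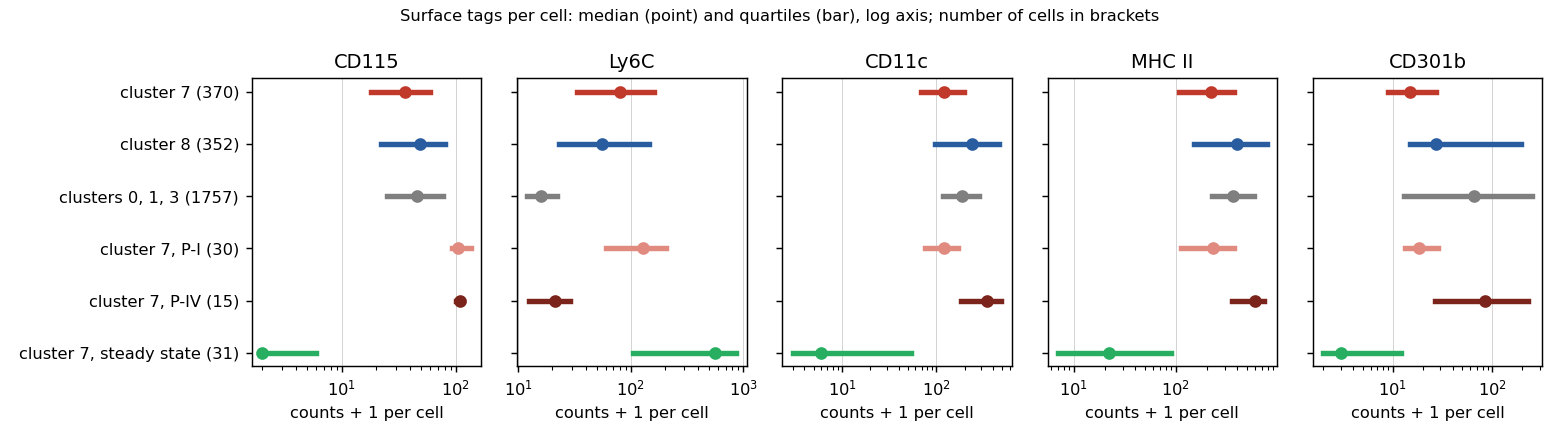
Counts of each surface tag per cell plus 1 (horizontal, log axis), median as a point and quartiles as a bar, for cluster 7, its subsets and the comparison clusters. After GM-CSF the Ly6C median is 79 in cluster 7 and 15 in clusters 0, 1 and 3, and CD301b and MHC class II are highest in P-IV. The steady-state cells of cluster 7 have a Ly6C median of 564. These are raw counts of another library, not scaled between libraries, so the 2 conditions cannot be compared by them.

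The 31 steady-state cells of cluster 7 were of more than 1 kind. NK cells were looked for by 8 marker genes (Ncr1, Klrb1c, Klrd1, Klre1, Klrk1, Gzma, Prf1 and Eomes), with at least 2 UMIs over them. This was met by 11 of the 31 cells (35.5%, 19.2 to 54.6%) and by 15 of the 370 GM-CSF-treated cells (4.05%, 2.29 to 6.60%). In cells that should lack these genes it was met by 1 of 1929 steady-state granulocytes and by none of 146 neutrophils, which allows up to 2.05%, and after GM-CSF by none of 1791 granulocytes (up to 0.168%) and 1 of 893 neutrophils. In cluster 8 it was met by 22 of 28 steady-state cells (78.6%) and 38 of 352 (10.8%), and in clusters 0, 1 and 3 by 327 of 1757 GM-CSF-treated cells (18.6%).

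In steady state 5 cells carried the defining genes. Gzma, granzyme A of cytotoxic granules (chr13:113093825-113100981, minus strand), had 171, 245, 336, 90 and 159 UMIs in them and 0 in the other 26 cells. These 5 also held all 44 UMIs of Ncr1, the NK receptor NKp46, all 33 of Klrb1c (NK1.1) and all 200 of Nkg7. All 5 were G2M cells, with 21 to 32 UMIs of Mki67 and 17 to 31 of Top2a each. Their Ly6C tag was 27 to 53 and they had no F13a1. The other 6 cells that met the rule had 2 to 12 UMIs of the 8 genes, none of Gzma, Ncr1 or Klrb1c, and 5 of them were in G1.

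The other 26 cells had a Ly6C tag median of 728 (17 to 1809), F13a1 in 22 of them (145 UMIs) and Ly6c2 in 23. Of these 26, 15 were in G1, 4 in S and 7 in G2M, and 3 of the 7 had only 952 to 1355 UMIs and at most 1 UMI of Mki67. Together they held 32 of the 159 Mki67 UMIs of the steady-state cells and the 5 Gzma cells 127, and for Top2a 13 and 118. Another 2 of the 7 had been named progenitor DC, with 8 and 9 UMIs of Mki67 and MHC class II tags of 1434 and 1535. The last 2 had 10168 and 9452 UMIs, 8 and 5 of Mki67, 10 and 12 of F13a1, and Ly6C tags of 1284 and 1619. In the 20 cells that did not meet the NK rule, mitotic entry summed to 252 CPM (177 to 347) and the classical monocyte list to 10315 CPM (9802 to 10847), against 2230 and 4062 in the 11 that did. The steady-state side of cluster 7 was thus mostly Ly6C+ cells with few mitotic transcripts. Beside them were a few deeper G2M cells with Mki67, namely 5 with NK genes, 2 named progenitor DC and 2 with a high Ly6C tag.

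**Figure D5:**
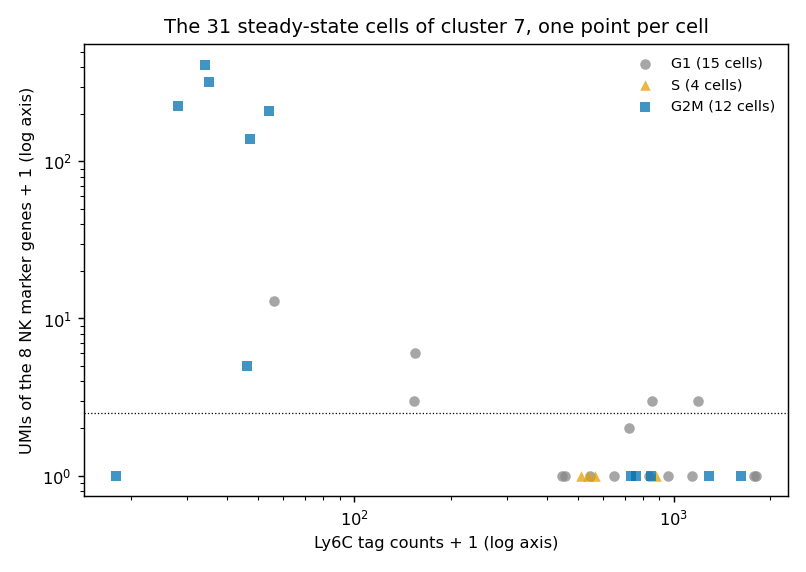
Ly6C tag counts plus 1 (horizontal) and UMIs of the 8 NK marker genes plus 1 (vertical, both log axes) of the 31 steady-state cells of cluster 7, coloured by phase. The 5 G2M cells at the top have 137 to 413 NK marker UMIs and Ly6C of 27 to 53, and the other 26 cells have 12 or fewer.

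After GM-CSF the rule picked other genes. Cluster 7 had 0 UMIs of Gzma, Ncr1, Prf1, Eomes and Nkg7 in 370 cells, where 3 counts would be 0.971 CPM, and its Klrd1, a lectin-like receptor, came to 48 UMIs in 30 cells and Klrk1 to 24. Without Klrd1, an alternative chosen after the values were seen, none of the 370 cells met the rule, which allows up to 0.811%, against 6 of 31 in steady state. Klrd1 stood at 15.5 CPM in cluster 7, 15.9 in cluster 8 and 58.7 in clusters 0, 1 and 3, and Klrk1 at 7.77, 23.8 and 58.7. Of the genes that marked the 5 steady-state cells, Gzma, Ncr1 and Nkg7 were thus at 0 in the GM-CSF-treated cells of cluster 7. A longer list of 14 NK genes had 78 UMIs in 52 of these 370 cells, with at most 4 in 1 cell. All comparisons among GM-CSF-treated cells above are free of the steady-state cells.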

How the data were processed

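CD11b+ splenocytes of 2 conditions were sequenced as 1 library each. The authors deposited raw UMI counts per gene and cell, made with Cell Ranger 3.0.2 on mm10, and raw counts of 5 antibody tags. They deposited, per cell, a percentage of mitochondrial UMIs, the S and G2/M scores and phase from Seurat, the cluster number and the tag-based subset. Cells in the deposited counts had 224 to 4972 genes. Cells of both libraries had been integrated and clustered by RNA, cells outside the MoMacDC bundle left out and the bundle clustered again.

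Raw counts were summed per group and scaled to CPM. Genes with at least 50 UMIs in both sums together were compared by CPM ratio with 0.5 counts added, and 2-fold was the limit for calling a gene higher or lower. Printed ratios are without the added counts and carry exact binomial intervals. No test was possible with 1 library per condition. Doublets were called with Scrublet (scanpy 1.11.5) and kept. The 36 gene lists and the cluster were chosen with earlier results of these data known. Named are the 3 markers, of each list the genes with the highest and lowest ratio and those at or near 0, and the 12 (clusters) or 6 (phases, subsets) highest and lowest ratios. The other named genes, chosen after their values were seen, are those compared by level, count or function within a list, and the extremes of the earlier clustering. The 2-fold rule was tested on simulated data. The simulated counts came from a pooled profile without variation between cells. They therefore do not show how the rule fares with genes held by few cells. Analyses ran in Python 3.11.15 (numpy 2.4.6, scipy 1.17.1), and the cycle gene names (43 for S, 54 for G2/M) for scoring phases again came from Seurat 5.3.0 in R 4.3.3. Results for some genes that these rules would name are not reported here.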

Additional observations from a re-analysis of the deposited data

How the results depend on the processing

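With 1 library per condition no value carries replicate error, and sums over rare cells rest on few UMIs. No paired analysis was possible because each condition was 1 library and no result comes from a test. Against cluster 8, 93 genes were higher and 390 lower by 2-fold. These counts became 21 and 108 of 2275 genes with cells thinned to 1000 UMIs, and 18 and 181 with a minimum of 200 UMIs. With a minimum of 20 UMIs, 225 were higher, and the share of higher genes among those past 2-fold went from 19.3 to 29.3%. Against clusters 0, 1 and 3, where 562 were higher and 529 lower, 219 were higher with thinned cells, 257 higher and 288 lower with a minimum of 200 UMIs, 120 and 264 among S cells, and 1024 and 796 among G2M cells, of which the comparison clusters had only 7 and where the median ratio was 0.916. Against cluster 1 alone 195 were lower, against cluster 0 442 and against cluster 3 471. The share of higher genes was 51.5% as reported, 37.9% with thinned cells, 31.3% among S cells and 67.8% against cluster 1. Thinning, minimums and splits leave fewer genes or cells to compare by construction. The other causes were not tested.

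With phases scored again, 66.8% of the cells were in G2M in place of 71.9%. Of 26 gene lists, 5 lay 2-fold apart from cluster 8 by their sums, and 14 among S cells. From clusters 0, 1 and 3, 10 did, and 5 among S cells. The summed neutrophil ratio of 2.56 turned to 0.7498 among S cells. The share of GM-CSF-treated cells meeting the NK rule was 13.8% at 1 UMI, 1.62% at 3 UMIs and 0 with the 7 genes other than Klrd1, an alternative chosen after seeing the data, as were leaving out the cell with Mcpt8 and Prss34, taking the lists in G2M cells, and leaving out doublets within phases and subsets. Of the remaining values, the ratios of named genes stayed within their counting interval in 331 of the recomputed cases and left it in 54. For list sums these were 161 and 150, and 1 reversed, the neutrophil list above.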

Other observations

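The MoMacDC_c1 and MoMacDC_c4 cells of cluster 7 after GM-CSF differed in identity genes as well as in the cycle. Summed CPM was 3603 in the 142 MoMacDC_c1 cells and 4995 in the 222 MoMacDC_c4 cells for the classical monocyte list, 956 and 1264 for the GMiDC list, and 19734 and 17170 for MHC class II. Neutrophil genes moved with them, at 222 and 955 CPM with 5 of 6 genes at least 2-fold lower in MoMacDC_c1, as did the early granulocyte list at 15.7 and 63.8 CPM, and their part was not tested. Over 6239 genes 41 were at least 2-fold higher in MoMacDC_c1 and 335 lower. Bmf, a promoter of cell death, had a CPM ratio of 3.74 and Ckb one of 4.87. Median Ly6C tags were 65 and 96.

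P-III cells, the pre-GMiDCs, were only 3 of the 370 cells, with 11 UMIs of Mki67 in 2 of them. Within cluster 8, P-I and P-IV cells stood at 1412 and 1198 CPM for mitotic entry, at 1369 and 1466 for licensing and at 743 and 3051 for the GMiDC list, so the licensing sums of both subsets lay above the 403 and 395 of cluster 7.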
